A study of Mus musculus with 2 samples.

Results

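Gene deserts are long stretches of the genome that hold no protein-coding gene. Here they were taken as every autosomal stretch lying more than 200 kb from the body of any protein-coding gene, from position 5000000 of each chromosome onwards, on the NCBIM37 (mm9) build with the GENCODE vM1 annotation. This gave 746 deserts, of which 714 held at least 1 measured CpG, and 94336 of the 1790826 CpGs of the table (5.27%) lay in them. The rule uses the annotation and the position of a CpG, and no methylation value. The samples were mouse embryonic fibroblasts (MEFs), cultured cells from the connective tissue of the embryo, with 1 library of reduced-representation bisulfite sequencing (RRBS) for each of 2 genotypes. The Dnmt1-/- MEFs carry 2 copies of a hypomorphic Dnmt1 allele, and both they and the Dnmt1+/+ MEFs are homozygous null for trp53, the gene of the p53 protein. The study used these cells to ask how a loss of DNA methylation changes the placing of Polycomb marks. With 1 library per genotype, every difference given here is between 2 libraries. There is no replicate error and no test between genotypes, and intervals cover at most counting error.

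Methylation of a CpG is a methyl group on the cytosine of a CG dinucleotide. Dnmt1 encodes the methyltransferase that copies this mark onto the new DNA strand after replication, so cells short of it are expected to lose methylation as they divide. Most CpGs of the mammalian genome are methylated, apart from CpG islands, the dense CpG clusters found mainly at gene starts. Gene deserts hold few islands, are poor in G and C, and often flank genes of neural adhesion or developmental regulators, whose distant enhancers they can contain.

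The deserts covered 439 Mb of known sequence, 18.4% of that of the autosomes. Their length ran from under 1 kb to several Mb, with a median of 356 kb, and 145 were longer than 1 Mb. The 200 kb beside each gene is outside the desert and is not counted in any length given here. The longest, 6799 kb on chromosome 7, was an assembly gap without a known base, and the widest desert with a measured CpG, between Celf4 and Pik3c3 on chromosome 18, was 4120 kb long. The sequence was 38.5% G and C and held 5.60 CpGs per kb, against 43.2% and 10.1 per kb in protein-coding gene bodies. RRBS reads fragments rich in restriction sites, and 3.83% of the CpGs of deserts were measured, against 10.8% of those in gene bodies. The median measured desert CpG lay 374 kb from the nearest gene and the farthest 2259 kb. Its methylation rested on a median of 21 calls in Dnmt1+/+ and 22 in Dnmt1-/-, where a call is a read that shows the CpG as methylated or not. At those depths a CpG with 0 methylated calls may still be up to 14.3% and 13.6% methylated.

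A property of the table shapes every desert mean. CpGs that lie within CCGG or TCGA, the sites cut by the enzymes MspI and TaqI, read high in both libraries even where all their neighbours were unmethylated, and they made up 60.3% of the measured CpGs in deserts but 413856 of the 1034827 in gene bodies. The sources used here do not name the enzymes, and the part that library preparation plays in these readings was not tested. Values are therefore given for all CpGs and for the remaining 37444 desert CpGs, called other CpGs, on which the description rests.

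Sequences of single desert fragments show the range of what the libraries contain. Each is read on the + strand of NCBIM37, 5′ to 3′, with the measured CpGs in capitals, and no annotated gene overlaps any of them. The first 3 come from the 1 kb windows with the largest fall of methylation, at chr9:5617125-5617230, chr5:68950327-68950518 and chr15:19823248-19823370, and are named by the protein-coding genes on either side.
Casp12–Pdgfd: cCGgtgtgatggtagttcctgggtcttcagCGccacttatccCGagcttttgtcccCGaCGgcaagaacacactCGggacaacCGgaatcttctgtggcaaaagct
Grxcr1–Kctd8: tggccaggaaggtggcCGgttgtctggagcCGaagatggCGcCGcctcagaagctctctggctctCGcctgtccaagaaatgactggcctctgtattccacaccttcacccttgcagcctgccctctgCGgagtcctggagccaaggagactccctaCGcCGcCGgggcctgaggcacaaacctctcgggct
Cdh10–Acot10: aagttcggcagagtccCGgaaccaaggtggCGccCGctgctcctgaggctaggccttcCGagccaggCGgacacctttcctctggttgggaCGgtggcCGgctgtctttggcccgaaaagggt
In the fragment between Casp12 and Pdgfd, 5 other CpGs were methylated at 93.9% to 100% in Dnmt1+/+ and at 0% to 1.33% in Dnmt1-/-. The outermost capitals of that line are CpGs of CCGG sites, and these fell only from 100% to 66.0% and from 97.0% to 51.9%. In the fragment between Grxcr1 and Kctd8 the 7 other CpGs went from a mean of 97.6% to 1.02%, while its CCGG CpGs averaged 53.6% in Dnmt1-/-. In the fragment between Cdh10 and Acot10 the 5 other CpGs went from 97.2% to 0.930%, with CCGG CpGs at 52.3% in Dnmt1-/-. All 17 other CpGs of the 3 fragments were thus almost empty of methylation in Dnmt1-/-. The CCGG CpGs, the outermost measured ones of each fragment, read 35.7% to 71.4% in that library.

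The next 3 come from the windows with the highest mean in Dnmt1-/-, among those at 80% or more in Dnmt1+/+, at chr13:39454599-39454694, chr10:15254222-15254380 and chr1:30573080-30573172.
Slc35b3–Ofcc1: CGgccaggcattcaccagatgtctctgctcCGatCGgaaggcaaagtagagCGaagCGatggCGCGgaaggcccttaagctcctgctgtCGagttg
Nmbr–Cited2: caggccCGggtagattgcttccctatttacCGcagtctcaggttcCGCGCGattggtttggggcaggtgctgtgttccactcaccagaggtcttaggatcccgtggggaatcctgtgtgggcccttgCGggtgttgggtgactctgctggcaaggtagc
Gm17684–Gm9898: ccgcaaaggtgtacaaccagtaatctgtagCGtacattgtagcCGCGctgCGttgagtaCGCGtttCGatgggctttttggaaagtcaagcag
In the fragment between Slc35b3 and Ofcc1 the mean of 6 other CpGs was 98.0% in Dnmt1+/+ and 84.1% in Dnmt1-/-, and single CpGs ranged from 60.9% to 100% in Dnmt1-/-. The fragment between Nmbr and Cited2 went from 98.7% to 84.0%, on only 10 calls per CpG in Dnmt1-/-. The fragment between Gm17684 and Gm9898 went from 97.4% to 83.3%, on 12 to 13 calls per CpG. These fragments were 50.5% to 59.7% G and C and held 7 or 8 CpGs, against 55.7% to 65.0% and 7 to 10 CpGs in the emptied ones.

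The last 2 were unmethylated in both libraries and were picked after their values were seen, at chr8:33994490-33994688 and chr3:25042858-25043026.
Gm5908–Wrn: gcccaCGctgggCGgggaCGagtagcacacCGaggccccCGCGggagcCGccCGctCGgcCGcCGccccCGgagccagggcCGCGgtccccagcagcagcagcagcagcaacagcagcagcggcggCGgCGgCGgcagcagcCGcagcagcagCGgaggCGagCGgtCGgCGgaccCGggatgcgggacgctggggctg
Gm7536–Nlgn1: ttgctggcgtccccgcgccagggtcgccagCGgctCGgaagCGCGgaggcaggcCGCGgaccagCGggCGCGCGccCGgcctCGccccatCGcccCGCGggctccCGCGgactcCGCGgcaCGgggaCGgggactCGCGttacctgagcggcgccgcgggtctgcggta
These were 80.4% and 80.5% G and C, with 28 and 32 CpGs. The 22 other CpGs of the first averaged 3.72% in Dnmt1+/+ and 1.27% in Dnmt1-/-, and the 22 of the second 1.03% and 0.593%. The 2 CCGG CpGs inside the first averaged 52.0% in Dnmt1+/+ and 57.2% in Dnmt1-/-, and the 1 inside the second read 62.1% and 55.1%. The fragments have the composition of CpG islands, far from any protein-coding gene: the windows they come from lie 350 kb from Wrn and 288 kb from Nlgn1.

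Desert CpGs were highly methylated in Dnmt1+/+ MEFs and lost most of it in Dnmt1-/- MEFs. Over all 94336 CpGs the mean was 84.6% in Dnmt1+/+ and 40.2% in Dnmt1-/-. Over other CpGs it was 82.7% and 17.6%, so that 21.3% of the Dnmt1+/+ mean was kept, and over CpGs in CCGG or TCGA it was 85.8% and 55.1%. The median other CpG went from 90.9% to 9.52%. In Dnmt1+/+, 72.7% of other CpGs were at 80% or more and 3.80% at 20% or less. In Dnmt1-/-, 1.75% were at 80% or more and 68.2% at 20% or less.

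**Figure D1:**
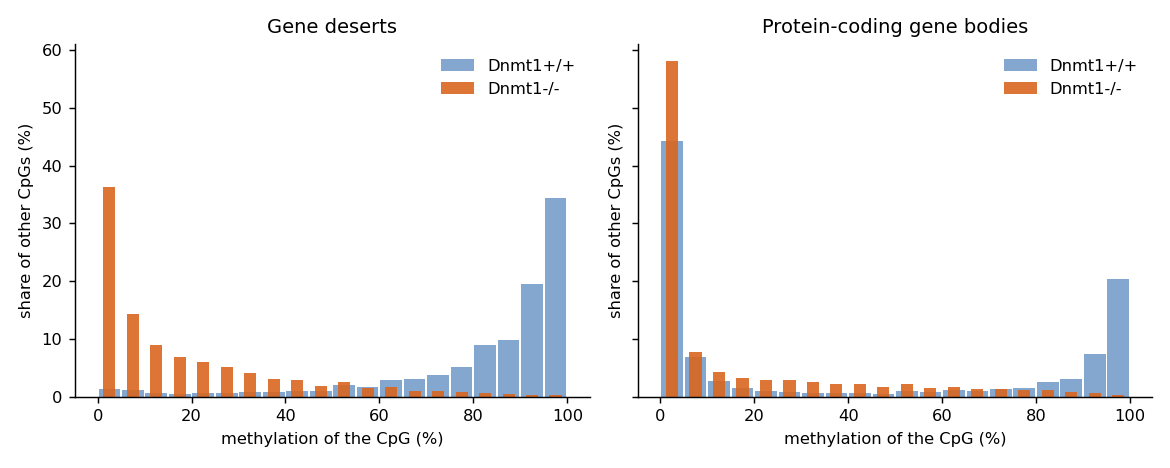
Share of other CpGs (y axis, %) in each 5-point class of methylation (x axis, %) for gene deserts (left) and protein-coding gene bodies (right), Dnmt1+/+ in blue and Dnmt1-/- in orange, 1 library each. Desert CpGs pile up near 100% in Dnmt1+/+ (median 90.9%) and near 0% in Dnmt1-/- (median 9.52%), while in gene bodies a large class near 0% is present in both.

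Each CpG was tested on its calls (Fisher's exact test, two-sided, Benjamini-Hochberg adjustment over the whole table, threshold 0.05), and 32910 of the 37444 other CpGs of deserts were lower in Dnmt1-/-. That is 87.9%, against a background of 44.2% over the other CpGs of the table, of which 48.2% were already at 20% or less in Dnmt1+/+. Among other CpGs at 80% or more in Dnmt1+/+ the contrast was smaller, with 93.1% called lower in deserts and 85.5% in gene bodies. With all CpGs the count was 59550 of 94336, or 63.1%, against a background of 43.7%. In CCGG or TCGA it was 26640 of 56892, or 46.8%, against 43.1%. Higher methylation in Dnmt1-/- was called at 35 desert CpGs, or 0.04%, against a background of 0.462%. Of these, 29 lay in CCGG or TCGA (background 0.245%), and 6 were other CpGs (background 0.635%). A CpG near full methylation in Dnmt1+/+ cannot be called higher. In Dnmt1+/+, 74.8% of desert CpGs were at 80% or more, against 52.3% over the table, and 72.7% against 37.9% for other CpGs. The shares called higher therefore do not compare CpGs of like starting level. Of the 6, the CpGs at chr12:68924317 and chr12:68924319 rose from 3.92% and 1.11% to 57.1%, but at 1888 and 1887 calls in Dnmt1+/+ and 14 calls each in Dnmt1-/-.

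Compared with protein-coding gene bodies, deserts started higher and ended at a similar level. Other CpGs of gene bodies averaged 39.3% in Dnmt1+/+, with 55.5% of them at 20% or less, and 15.3% in Dnmt1-/-. The share kept was therefore 39.0% in gene bodies and 21.3% in deserts, a difference of −17.7 percentage points. Leaving out gene CpGs within 1 kb of any annotated start gave gene bodies at 76.9% and 29.4%, with 38.2% kept. When CpGs at 80% or more in Dnmt1+/+ were compared, deserts went from 93.5% to 21.3% and gene bodies from 95.2% to 37.1%. In that class 61.0% of desert CpGs but 34.8% of gene CpGs were at 20% or less in Dnmt1-/-, and 2.35% against 8.49% were still at 80% or more. So the Dnmt1-/- mean of deserts lay above that of gene bodies when all levels were pooled, and far below it among CpGs that began methylated.

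The share kept fell with distance from genes. Over other CpGs it was 32.0% within 10 kb of a gene, 27.4% at 10 to 50 kb and 25.9% at 50 to 100 kb, and at 100 to 200 kb the mean went from 80.5% to 20.1%. Within the deserts it was 22.3% at 200 to 500 kb (25439 CpGs), 19.9% at 500 to 1000 kb (8967 CpGs) and 17.7% beyond 1000 kb (3038 CpGs). The order was the same among CpGs at 80% or more in Dnmt1+/+, whose Dnmt1-/- mean was 28.5% within 10 kb of a gene, 22.4% at 200 to 500 kb and 17.2% beyond 1000 kb. It was the same again among those with 4 to 8 CpGs within 100 bp, at 28.5%, 21.7% and 14.5%. CpGs in CCGG or TCGA moved less along this axis, from 71.3% kept within 10 kb to 63.6% beyond 1000 kb.

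**Figure D2:**
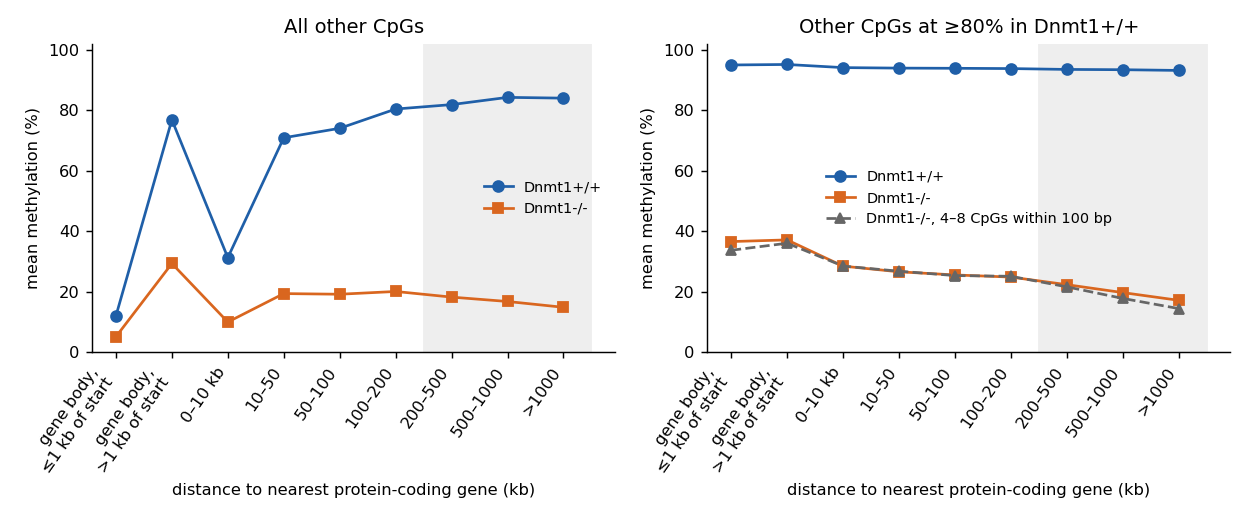
Mean methylation of other CpGs (y axis, %) by distance to the nearest protein-coding gene (x axis, kb; gene bodies at the left, deserts shaded), over all levels (left) and for CpGs at 80% or more in Dnmt1+/+ (right), with blue circles for Dnmt1+/+, orange squares for Dnmt1-/- and grey triangles for Dnmt1-/- CpGs with 4 to 8 CpGs within 100 bp. In the right panel Dnmt1+/+ stays level while Dnmt1-/- declines from 37.2% in gene bodies away from starts to 17.2% beyond 1000 kb.

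Local CpG density and neighbouring bases went with the level kept inside deserts as well. Among desert CpGs at 80% or more in Dnmt1+/+, the Dnmt1-/- mean was 15.0% where 2 CpGs lay within 100 bp (the CpG itself included), 18.3% with 4 to 5, 21.9% with 6 to 8, 24.3% with 9 to 12 and 25.9% with 13 or more. Gene-body CpGs rose over the same classes from 28.3% to 46.5%, and in each class from 2 CpGs up the desert value was the lower. The gene CpGs of the class with 2 (28.3%) still lay above the desert CpGs of the densest class (25.9%). CpGs with no other within 100 bp did not follow this order, at 67.8% over only 5 in deserts and 42.6% over 16 in gene bodies. By the bases beside the CG, the desert mean in Dnmt1-/- was 25.4% with G or C on both sides, 19.8% with A or T on 1 side and 15.1% with A or T on both. The matching values in gene bodies were 44.9%, 35.1% and 30.5%.

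**Figure D3:**
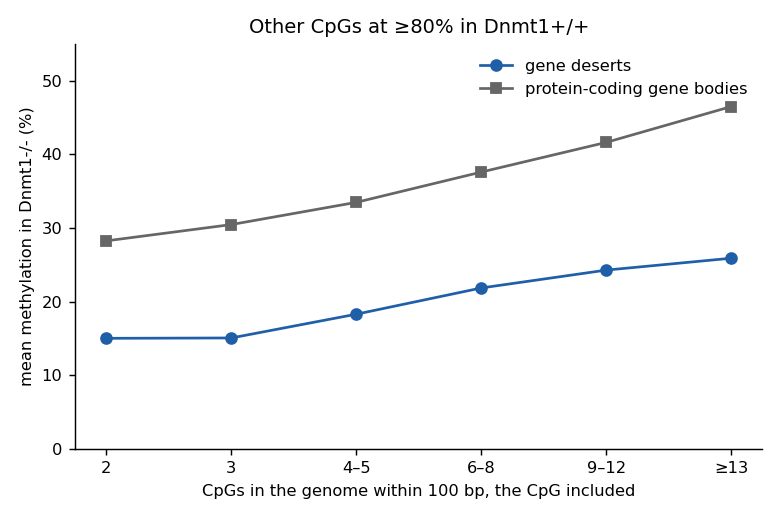
Mean methylation in Dnmt1-/- (y axis, %) of other CpGs at 80% or more in Dnmt1+/+, by the number of CpGs within 100 bp (x axis), for gene deserts (circles) and protein-coding gene bodies (squares). From 2 CpGs up both lines rise with density, deserts from 15.0% to 25.9% and gene bodies from 28.3% to 46.5%, and the desert line stays below throughout.

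Every desert with enough data lost methylation, but by different amounts. In all 584 deserts with at least 10 other CpGs the Dnmt1-/- mean was below the Dnmt1+/+ mean. Their Dnmt1+/+ means had quartiles of 82.0% and 88.6%, and their Dnmt1-/- means 12.4% and 23.4%. The median share kept was 20.2%, with quartiles of 14.9% and 27.0% and a range of 1.94% to 69.9%. Of the 485 deserts with at least 20 other CpGs, 29 kept under 10%, 33 kept over 40% and 10 kept over 50%.

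Each desert was then set against its own surroundings, the protein-coding gene bodies within 1 Mb. In 582 deserts both sides had at least 10 other CpGs, and the desert kept the smaller share in 515 of them (88.5%), with a median difference of −16.2 points and quartiles of −23.9 and −6.77. The Dnmt1+/+ mean was higher in the desert than in the genes in 572. The Dnmt1-/- mean itself was lower in the desert in 205. With both sides held to CpGs at 80% or more in Dnmt1+/+, the desert kept less in 437 of 517. On each of the 19 autosomes deserts kept less than gene bodies, from −14.2 points on chromosome 13 to −21.8 on chromosome 12. Desert shares ran from 17.8% on chromosome 6 to 26.7% on chromosome 13.

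**Figure D4:**
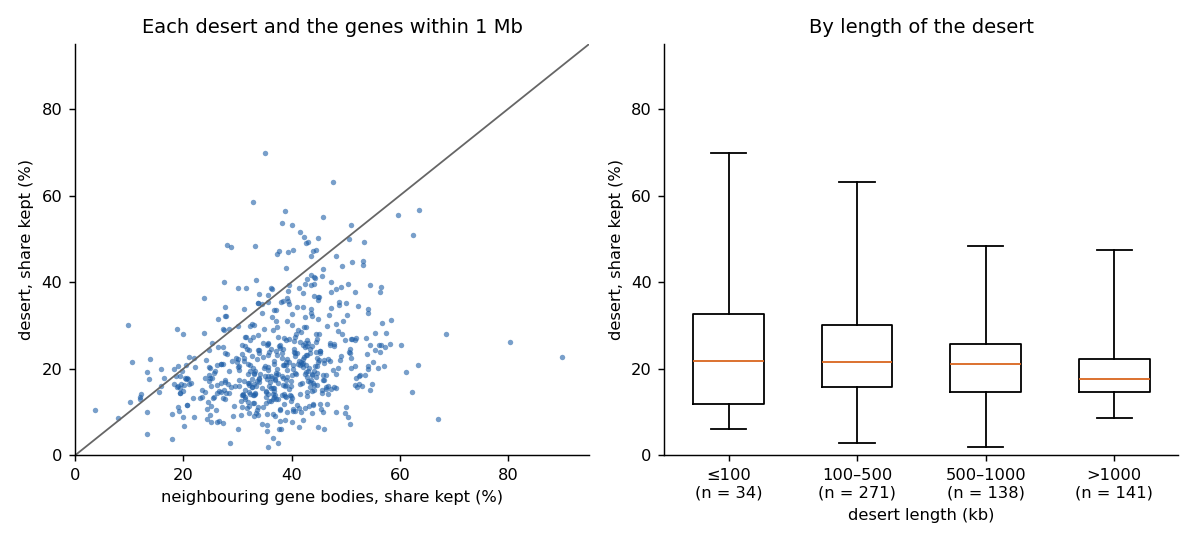
Left, share of Dnmt1+/+ methylation kept in Dnmt1-/- (%) in each of 582 deserts (y axis) against that of protein-coding gene bodies within 1 Mb (x axis), other CpGs, with a line of equality. Right, the share kept (y axis, %) by desert length (x axis, kb), with boxes for quartiles, orange medians and whiskers to the extremes. In the left panel 515 points lie below the line, and in the right panel the median is 17.6% above 1000 kb and 21.0% to 21.8% in the shorter classes.

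Deserts above 1000 kb kept a smaller median share than the shorter classes and varied less. The median share was 21.8% in deserts of up to 100 kb (34 deserts), 21.5% at 100 to 500 kb (271), 21.0% at 500 to 1000 kb (138) and 17.6% above 1000 kb (141). The quartiles narrowed from 11.9% and 32.6% in the shortest to 14.6% and 22.3% in the longest. The median number of other CpGs per desert grew along these classes from 14.5 to 105.

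The 3 deserts with the most measured CpGs were of very different kinds, 2 of them among the widest and 1 with ribosomal RNA genes. Between Cntnap5b, a contactin-associated protein, and Cdh20, a cadherin, chr1:102582520-106465105 held 708 measured CpGs. Its 285 other CpGs went from 82.7% to 13.4% on average. Of these 252 were called lower, a share close to the 87.9% over the other CpGs of all deserts. Pooled calls gave 83.5% (95% Wilson interval 82.6% to 84.3%) and 10.98% (10.3% to 11.7%). Between Olfm4, an olfactomedin, and Pcdh17, a protocadherin, chr14:80622668-84643369 held 700 measured CpGs, and its 240 other CpGs went from 81.2% to 9.28%, or 11.4% kept. Between Celf4, an RNA-binding splicing regulator, and Pik3c3, a class III phosphoinositide 3-kinase, chr18:26112485-30232400 had 203 other CpGs that went from 79.0% to 12.8%. The share kept was 16.2% in both the Cntnap5b–Cdh20 and the Celf4–Pik3c3 desert. In the neighbouring genes of the 3 deserts, in the order named, it was 20.03%, 29.4% and 38.5%. Those genes started lower, at 48.96%, 25.5% and 46.9% in Dnmt1+/+, and stood at 9.81%, 7.49% and 18.03% in Dnmt1-/-, so that beside the first 2 deserts the Dnmt1-/- level of the genes was below that of the desert. The Cntnap5b–Cdh20, Olfm4–Pcdh17 and Celf4–Pik3c3 deserts were the widest with measured CpGs, at 3883, 4021 and 4120 kb. Along the first of them, the 22 bins of 50 kb with at least 5 other CpGs had Dnmt1-/- means of 1.68% to 38.8%, with a median of 12.4%. Along the Celf4–Pik3c3 desert 14 such bins ran from 0.269% to 36.6%, with a median of 14.1%. Low values in Dnmt1-/- were thus found along both deserts, with differences from bin to bin.

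**Figure D5:**
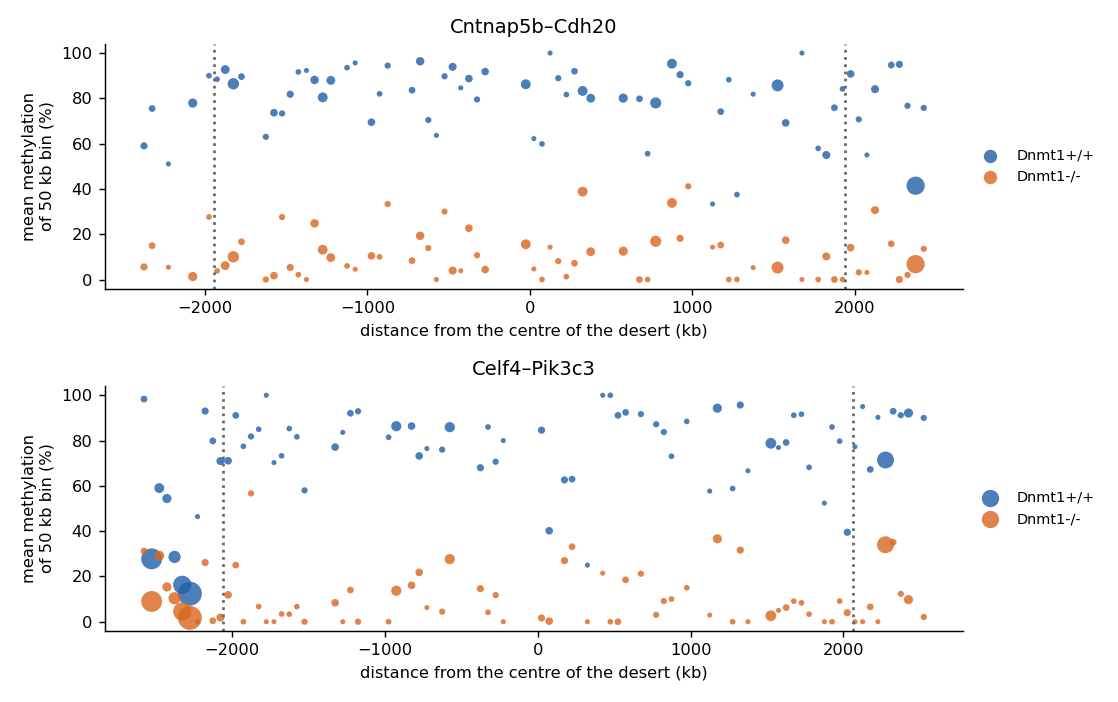
Mean methylation of other CpGs in 50 kb bins (y axis, %) by distance from the centre of the desert (x axis, kb) for Cntnap5b–Cdh20 (top) and Celf4–Pik3c3 (bottom), Dnmt1+/+ in blue and Dnmt1-/- in orange. Larger points hold more CpGs, dotted lines mark the desert's edges, and among bins with at least 5 other CpGs inside them the Dnmt1-/- means reach at most 38.8% and 36.6%.

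The remaining desert of those with the most CpGs, between Gm20516 and Pgk2 at chr17:38982596-40143962, contains a copy of the 45S ribosomal RNA genes. The 392 CpGs of the copy had median depths of 4490 and 3294 calls and took 45.2% and 38.9% of all calls made in deserts. The 330 other CpGs there averaged 15.0% in Dnmt1+/+ and 2.56% in Dnmt1-/-, so CpGs placed on the copy read mostly unmethylated in both libraries. The median depth over deserts was 21 calls in Dnmt1+/+, and calls from other copies of these repeated genes cannot be told apart here from calls of this one. Because each CpG counts once, leaving the copy out moved the desert means only to 83.3% and 17.8%.

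Among deserts with at least 20 other CpGs, the smallest share was kept on chromosome 12 between Gm17295 and Apob, the gene of a lipoprotein component, at chr12:7321932-7784453. Its 29 other CpGs went from 81.9% to 3.36% (4.10% kept), where the neighbouring genes kept 36.6%. Next came the desert between Tbc1d2b and Zic1, a zinc-finger regulator of neural development, at chr9:90365643-91052895. Its 30 other CpGs went from 83.1% to 4.66%, and the neighbouring genes kept 35.5%. The third, between 1700092K14Rik and the ribosomal protein gene Rpl38 at chr11:114260514-114329837, went from 74.6% to 4.50% over 38 CpGs. The genes around the third kept 38.1%. Around the 3 deserts, in this order, gene CpGs averaged 24.5%, 25.9% and 45.5% in Dnmt1+/+ and 8.96%, 9.21% and 17.3% in Dnmt1-/-, so the genes started lower than the deserts and ended above them.

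The largest share was kept in a short desert of 67.3 kb between Serp2 and 9030625A04Rik at chr14:77156666-77224002, where 21 other CpGs went from 92.6% to 64.7%. That is 69.9% kept, against 35.0% in the neighbouring genes. Pooled calls in Dnmt1-/- gave 65.1% (95% Wilson interval 61.2% to 68.9%). Between Rasgrp1, a Ras activator, and Thbs1, the matrix protein thrombospondin, 24 other CpGs went from 87.1% to 50.9%, with 33.0% kept in the neighbouring genes. Between Chek2, a DNA damage kinase, and Pitpnb, a lipid transfer protein, 21 other CpGs went from 83.7% to 47.4% (56.6% kept), and there the neighbouring genes kept more, 63.6%. These 3 deserts thus differed in how they stood to the genes beside them, 2 keeping more and 1 less.

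Deserts were also grouped by the genes at their edges, matched to lists by gene symbol or its beginning. Where a flanking gene was on a list of developmental transcription factors, the median share kept was 23.6% over 74 deserts (quartiles 16.6% and 33.5%). With no such factor but a flanking gene of neuronal adhesion, axon guidance or ion channels, it was 17.4% over 126 deserts (quartiles 13.4% and 22.4%). With neither it was 20.6% over 384. The quartile ranges overlap. These shares are over deserts with at least 10 other CpGs. Over all deserts with such flanks, measured or not, those beside neuronal genes were longer, with a median of 699 kb over 149 against 343 kb over 92 beside transcription factors, and the part of length in this difference was not tested.

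Deserts beside transcription factors ranged widely in the share kept, and the following were picked after their values were seen. Among those with at least 20 other CpGs, 6.18% was kept between Prox1, a regulator of lymphatic development, and Rps6kc1 (44 CpGs, 77.0% to 4.76%). Between the homeobox genes Irx2 and Irx4, 9.86% was kept (46 CpGs, 77.4% to 7.64%). In contrast, 56.4% was kept between Sox9, a master regulator of cartilage, and Slc39a11 (29 CpGs, 90.1% to 50.8%), and 53.6% between Klf5 and Klf12 (30 CpGs, 94.6% to 50.7%). Beside neuronal genes, 6.42% was kept between Sqrdl and Sema6d, a semaphorin (39 CpGs, 87.1% to 5.59%), and 8.57% between the cadherins Cdh9 and Cdh10 (132 CpGs, 88.7% to 7.60%). The highest there with at least 20 other CpGs was 35.3% between Ttll7 and Lphn2 (106 CpGs, 91.5% to 32.3%).

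Cut into 1 kb windows with at least 5 other CpGs, deserts gave 1794 windows. The mean was lower by 25 points or more in Dnmt1-/- in 1724 of them (96.1%), against a background of 48.1% over the table, where 45.2% of windows were at 20% or less in Dnmt1+/+. None was higher by that much, against a background of 0.334%, and these counts rest on the size of the difference, without a test. A window at 80% or more in Dnmt1+/+ cannot rise by that much. Of desert windows 82.4% were at that level, against 39.9% over the table, so the absence of rises was largely set by the starting level. Windows at 80% or more in Dnmt1+/+ numbered 1478, with a median of 20.6% in Dnmt1-/- (quartiles 11.8% and 31.6%), where 10374 such windows of gene bodies had 41.0% (23.1% and 56.8%). Of the desert windows 712 (48.2%) fell to 20% or less and 119 (8.05%) to under 5%, while 5 stayed at 80% or more. Windows under 5% in Dnmt1-/- had a median G and C content of 46.9% and 20 CpGs per kb. From there the medians were 48.1% and 23 CpGs at 5 to 20%, 48.7% and 26 at 20 to 40%, 47.8% and 24 at 40 to 60%, and 48.0% and 24 in the 41 windows at 60% or more.

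In 6 desert windows the mean was higher in Dnmt1-/-, and the 3 largest rises were small changes on low levels. The first, chr7:78850001-78851000 between Gm10295 and Mctp2, had 20 other CpGs that went from 14.4% to 19.3%. Its pooled calls gave 14.7% (12.4% to 17.3%) and 18.3% (15.6% to 21.4%), with intervals that overlap, and 1 of the 20 CpGs was called higher. The second, between Med13l and Tbx3 at chr5:119456001-119457000, went from 16.4% to 21.0% over 6 CpGs. The third lay in the lincRNA gene Gm11818 at chr4:12834001-12835000 and went from 1.33% to 5.71% over 5 CpGs. Pooled intervals overlapped in both of these as well, and neither had a CpG called higher.

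Windows at 20% or less in Dnmt1+/+ were rare in deserts, 46 of 1794 (2.56%), whereas they were 53.2% of the windows in gene bodies. The 3 with the most CpGs were all in the ribosomal copy on chromosome 17, with 80, 64 and 53 other CpGs at 10.6%, 17.9% and 5.77% in Dnmt1+/+ and 1.94%, 1.93% and 1.26% in Dnmt1-/-. Without the copy, 3 more windows were picked after their values were seen. The next in number of CpGs was chr12:22811001-22812000 between Gm17680 and Gm17391, with 42 other CpGs at 5.93% and 1.38%. On the same chromosome chr12:22990001-22991000, with 38 CpGs at 9.55% and 0.561%, overlaps 2410018L13Rik, an annotated noncoding transcript. The lincRNA gene Gm16950 lies over chr13:10359001-10360000, between Chrm3, a muscarinic receptor, and Ryr2, a calcium release channel, where 30 CpGs stood at 15.8% and 3.81%. So a part of the unmethylated windows in deserts belonged to annotated noncoding genes, and others, such as the windows near Wrn and Nlgn1 printed above, did not.

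Deserts overlap 1271 annotated genes of a biotype other than protein-coding, among them 363 pseudogenes, 157 processed transcripts, 29 lincRNAs and 103 immunoglobulin variable segments, which encode parts of antibodies but have a biotype of their own. The 1334 other CpGs inside any of these averaged 74.7% in Dnmt1+/+ and 21.1% in Dnmt1-/-, or 28.2% kept. The 36110 outside averaged 83.0% and 17.5%, or 21.1% kept. For lincRNAs 365 other CpGs went from 72.7% to 23.5% (32.4% kept), for processed transcripts 670 went from 78.6% to 21.6% (27.5%), and for pseudogenes 308 went from 70.3% to 19.2% (27.3%). Some of the pseudogene CpGs lay in the ribosomal copy on chromosome 17, and the 262 outside it went from 80.9% to 22.3% (27.5%), against 83.5% and 17.6% (21.1%) for desert sequence without a gene when the copy is left out there too. That check was added after the data were seen. With or without the copy, all 3 classes started lower and kept a larger share than desert sequence without a gene.

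Neighbouring desert CpGs had similar levels in Dnmt1-/- only over short distances. For consecutive other CpGs both at 80% or more in Dnmt1+/+, Pearson's r of the Dnmt1-/- levels was 0.77 over 5175 pairs at 2 to 10 bp and 0.55 over 6313 pairs at 11 to 50 bp. It was 0.20 at 51 to 100 bp and 0.24 to 0.37 in the wider classes up to 5000 bp. These values are across CpGs of 1 library, and close CpGs share reads. The mean difference between such neighbours was 11.6 points at 2 to 10 bp and 18.0 to 21.6 points beyond 50 bp.

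The CpGs in CCGG or TCGA followed the differences between deserts only weakly, over deserts with at least 10 other CpGs. In the 15 deserts whose other CpGs averaged under 5% in Dnmt1-/-, those CpGs still averaged 53.0%. In the 294 deserts at 10 to 20% they averaged 54.1%, and in the 6 deserts at 50% or more 63.3%. So CpGs in CCGG or TCGA rose across these classes, but over a narrower range than the other CpGs.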

How the data were processed

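RRBS libraries of Dnmt1+/+ and Dnmt1-/- MEFs were made and mapped by a service provider. The submitters' processing notes name Bismark and mm9, and the conversion rate is not given in the sources used here. For each CpG the deposited table holds a count of calls (the depth) and methylated calls as a percent of them, and the authors removed CpGs under 10 calls in either library. Percent times depth was whole (within 0.001) at 100% of CpGs, which returned the methylated calls. The Dnmt1+/+ library held 74636195 calls in all, and the Dnmt1-/- library 78401157.

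Samples were grouped by the genotype in their labels. Each CpG counted once in a mean, and the share kept is the Dnmt1-/- mean divided by that of Dnmt1+/+, in percent. The per-CpG Fisher test compares 2 libraries. Wilson intervals (95%) are on pooled calls. They take calls as independent, although close CpGs share reads, so they can be too narrow. Distances used GENCODE vM1 gene bodies, and coordinates are 1-based. Python 3.11.15, numpy 2.4.6, scipy 1.17.1 and pysam 0.24.0 were used.

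Deserts named in the text were the 3 with the most measured CpGs, the 3 widest, and, with at least 20 other CpGs, the 3 lowest and 3 highest in share kept. Windows of 1 kb with at least 5 other CpGs were named for the 3 largest falls, the 3 largest rises, the 3 highest in Dnmt1-/- among those at 80% or more in Dnmt1+/+, and the 3 with the most CpGs at 20% or less. Others were picked after their values were seen and are marked so. The deserts, lists and rules were chosen with earlier results of these data known. Alternatives changed the depth minimum, weighting, distance, annotation, CpG class and threshold.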

Additional observations from a re-analysis of the deposited data

How the results depend on the processing

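No paired analysis was possible because there was a single library of each genotype, and none could be left out. Masking of repeats was not run, since the reference sequence does not mark them. The Dnmt1-/- desert mean is given below over all CpGs and over other CpGs (40.2% and 17.6% as reported), with the difference from gene bodies in share kept (−17.7 points). A depth of at least 20 gave 40.02%, 16.8% and −20.1 points. Pooling calls gave 27.3%, 8.39% and −17.1, and pooling without the ribosomal copy, added after seeing the data, gave 38.8%, 17.1% and −19.99, so that this 1 copy set much of the pooled means. Counting each desert once gave 41.4%, 19.03% and −16.4. Without CpGs above the 99th percentile of depth the values were 40.3%, 17.8% and −17.6. Beyond 100 kb from genes they were 40.8%, 18.7% and −16.2, beyond 500 kb 39.6%, 16.3% and −19.6, and with distance to any annotated gene 40.1%, 17.3% and −18.4. With chromosome starts kept, other CpGs were at 17.6% and the difference −17.8. Without the ribosomal copy the means were 40.3% and 17.8%. The difference was −16.2 points at 80% or more in Dnmt1+/+, −15.1 with at most 3 CpGs within 100 bp and −16.9 with gene CpGs over 1 kb from starts. After seeing the data, −16.3 was found for the first and last of these together, and −16.05 at 80% or more with 4 to 8 CpGs within 100 bp. The difference was below 0 under every alternative run.

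Of 94336 desert CpGs, 59550 were called lower and 35 higher. At a depth of at least 20 the counts were 31532 and 20 of 43625. Beyond 100 kb they were 101121 and 79 of 160899, and beyond 500 kb 19331 and 13 of 30898. For any annotated gene they were 25561 and 16 of 40673. Thinned to 10 calls they were 28083 and 3 of 94336, and without CCGG and TCGA 32920 and 6 of 37444. Most of these settings test fewer or more CpGs by construction. At an adjusted p under 0.01, 5 were called higher. Deserts below their neighbouring genes (515 of 582) numbered 912 of 1041 beyond 100 kb, 169 of 194 beyond 500 kb and 310 of 372 for any annotated gene, or 83.3% to 87.6% of those compared. Depth limits single CpGs: at 10 calls, 0 methylated allows up to 30%.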

Other observations

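The 6 other CpGs called higher in Dnmt1-/- were scattered over 5 places, and none lay in a window with a rise of 25 points. At chr3:6298602 methylation was 30.8% of 13 calls in Dnmt1+/+ and 81.2% of 16 calls in Dnmt1-/-. At chr12:47500502 it was 17.3% and 33.3%. At chr7:78850605, inside the window between Gm10295 and Mctp2, it was 10.8% and 29.7% of 74 calls each. At chr18:83806967 it was 0% and 54.5% of 11 calls each. The other two stood 2 bases apart on chromosome 12, with 1888 and 1887 calls in Dnmt1+/+ against 14 each in Dnmt1-/-.

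The bases on either side of the CG went with the level left in deserts. Among other CpGs at 80% or more in Dnmt1+/+, the Dnmt1-/- mean was lowest in ACGA (14.5%), ACGT (14.9%) and TCGT (15.8%) and highest in GCGC (27.6%), with CCGC and GCGG at 24.7% each. In gene bodies the same contexts gave 29.9%, 31.6% and 29.9% for the first 3, 48.2% for GCGC, and 43.2% and 43.4% for CCGC and GCGG. The Dnmt1+/+ means of these 6 contexts in deserts lay between 92.1% and 93.8%. These are means over CpGs of 1 library each, with no replicate.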
